A study of Mus musculus with 4 samples.

Results

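The 6 genes described here, Srgn, Spink1, Lgals3, Laptm5, Eng and Lck, were chosen by their FPKM (fragments scaled to transcript length and sequencing depth): at least 1 transcript of each was low in untreated p53-/- against untreated p53+/+ mouse embryonic stem (ES) cells. They are 6 of 22401 named genes, hold 11 transcript rows, and all reached 1 FPKM in a library, as did 13013 genes in all. The ES cells, p53+/+ or p53-/-, were of the strain C57BL/6X129Sv mix, were below 20 passages and grew in serum with leukemia inhibitory factor. In each genotype a culture without drug was set beside a culture with Adriamycin (doxorubicin, a drug that breaks DNA through topoisomerase II) at 0.5 uM for 8 h, and poly(A) RNA was sequenced. Whether a genotype is a single clone was not given in the sources used here. With 1 library per group there are no replicates, so no difference was tested.

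These genes have different jobs, and several are best known from blood, vessel or gland cells. Srgn encodes serglycin, the proteoglycan core that packs charged cargo into secretory granules of blood cells. Spink1, once called Spink3 in mice, encodes a secreted inhibitor of trypsin. Laptm5 encodes a lysosomal membrane protein that helps send immune receptors to degradation. Eng encodes endoglin, a co-receptor for ligands of the TGF-beta and BMP family that is prominent on endothelial cells. Lgals3 encodes galectin-3, a lectin that binds beta-galactoside sugars. Lck encodes a Src family tyrosine kinase that starts signalling at the T cell receptor. The p53 protein, encoded by Trp53, is a transcription factor that accumulates after DNA damage, and ES cultures hold short-lived states such as the 2-cell-like state marked by Zscan4 genes.

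Trp53 transcripts summed to 216 FPKM without drug and 165 FPKM with it in p53+/+ cells, and 78.6 and 76.5 FPKM, in that order, in p53-/- cells. The bases covered came to an estimated 3.34 to 4.32 gigabases per library, with 11424 to 12292 genes at 1 FPKM or more. All 10 ES cell markers examined reached 1 FPKM in every library. The summed level of 12 fibroblast markers was 335 and 286 FPKM in the p53-/- libraries and 9.27 and 15.9 FPKM in the p53+/+ libraries, and its part in the results was not tested. In RNA from whole cultures, fewer cells of a type and less RNA per cell cannot be told apart.

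With transcripts summed, 5 of the 6 genes were lower in untreated p53-/- cells by at least 1 on the log2(FPKM + 1) scale, where 3.14% of all genes were lower and 3.50% higher. This contrast chose the genes, so the count describes the choice and nothing is read from it. Lck went against the description, with a summed level about equal in both untreated libraries, and only 1 of its transcripts was lower. Ordered from the lowest difference among 9364 genes that reached 5 FPKM, Srgn stood at place 3, Spink1 at 4, Laptm5 at 9, Eng at 16, Lgals3 at 115 and Lck at 5790.

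The choice did not use the treated libraries. There Srgn, Spink1, Laptm5 and Eng, 4 of the 6, were lower in p53-/- cells by at least 1, where 13% of all genes were. Lck was higher by at least 1, as were 6.72% of all genes, and Lgals3 differed by -0.32. The median over the 6 genes was -3.33, beside -0.02 over all genes. Genotype labels are the same in both conditions, so a treated library is no separate check on the cell lines. The 4 comparisons, between genotypes and between conditions, share libraries and are set side by side only.

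**Figure D1:**
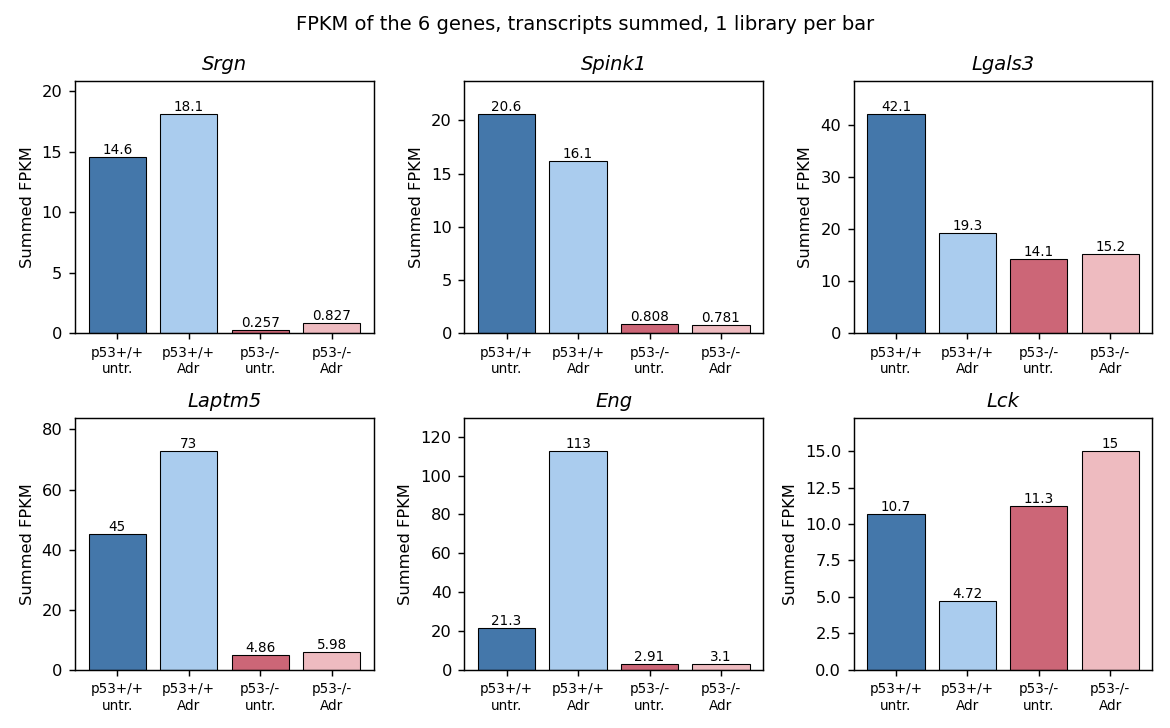
Summed FPKM of Srgn, Spink1, Lgals3, Laptm5, Eng and Lck (vertical axes, from 0, a separate scale per gene) by library (horizontal axis), with no error bars because each group has 1 library. Srgn, Spink1, Laptm5 and Eng are high in both p53+/+ and low in both p53-/- libraries, Lgals3 is highest in the untreated p53+/+ library at 42.1 FPKM, and Lck is lowest in the treated p53+/+ library at 4.72 FPKM.

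Srgn (chromosome 10, 61957176 to 61970503 in mm9; 3 exons in GENCODE M21) had 1 transcript in the tables. Its level was 14.6 FPKM without drug and 18.1 FPKM with it in p53+/+ cells, and 0.257 and 0.827 FPKM, in that order, in p53-/- cells. Both p53-/- libraries lay far below both p53+/+ libraries. The p53+/+ level was 56.8 times the p53-/- level in untreated and 21.9 times in treated cells. The deposited upper bounds in p53+/+ cells, 14.0 and 17.4 FPKM, fell short of the FPKM they belong to. From lower bound in p53+/+ to upper bound in p53-/- cells the ratio was 25.3 untreated and 10.6 treated. Mean read depth per base was 78.9 and 94.7 in p53+/+ libraries but 0.991 and 3.33 in p53-/- libraries, so the low values rest on few reads. The p53-/- response, 0.54, became 1.38 with a pseudocount of 0.1 FPKM, and the treated genotype difference, -3.39, became -1.99 with a pseudocount of 5 FPKM.

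Spink1 (chromosome 18, 43887723 to 43896891 in mm9; 4 exons) also had 1 transcript. The measured level was 20.6 FPKM without drug and 16.1 FPKM with it in p53+/+ cells, and 0.808 and 0.781 FPKM, in that order, in p53-/- cells. Its level followed the genotype label in both conditions, with responses to the drug of -0.33 in p53+/+ and -0.02 in p53-/- cells. In untreated cells the p53+/+ level was 25.5 times higher and in treated cells 20.7 times. This short transcript of 422 bases had the widest gap to its bounds among the 6 genes, with p53+/+ values 36.6% and 26.7% above their upper bounds. From bound to bound the ratio was 6.41 untreated and 5.26 treated. The treated difference, -3.27, became -1.87 with a pseudocount of 5 FPKM.

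Laptm5 (chromosome 4, 130469249 to 130492063 in mm9; 8 exons) was the most abundant of the 3 genes with 1 transcript. It was found at 45.0 FPKM without drug and 73.0 FPKM with it in p53+/+ cells, and 4.86 and 5.98 FPKM, in that order, in p53-/- cells. Both p53-/- libraries lay below both p53+/+ libraries, as for Srgn, Spink1, Eng and Lgals3. The untreated part of that order was fixed by the choice of genes. Its share over all genes was not counted, so nothing is read from it. The ratio of p53+/+ to p53-/- cells was 9.27 untreated and 12.2 treated, or 7.004 and 9.95 from bound to bound. The drug went with a difference of 0.68 in p53+/+ cells, short of 1, and of 0.25 in p53-/- cells.

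Eng (chromosome 2, 32502115 to 32538189 in mm9) combined a genotype difference with the widest drug response of the 6 genes. The sum of its 3 transcripts was 21.3 FPKM without drug and 113 FPKM with it in p53+/+ cells, and 2.91 and 3.10 FPKM, in that order, in p53-/- cells. Treated p53+/+ cells stood far above the other 3 libraries. Their level was 5.30 times that of untreated p53+/+ cells, a difference of 2.35, while in p53-/- cells the difference was 0.07. In the p53+/+ response 11.4% of all genes were higher by at least 1, and of the 6 genes Eng alone was, at place 209 of 13013 from the top. Between treated genotypes the ratio was 36.4, and Eng stood at place 7 from the bottom.

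In p53+/+ cells most of the Eng total was NM_007932, with 15 exons. This transcript stood at 16.5 FPKM (15.2 to 17.7) without drug and 92.2 FPKM (87.4 to 93.4) with it in p53+/+ cells, against 1.31 FPKM (0.989 to 1.62) and 2.44 FPKM (2.04 to 2.83) in p53-/- cells, with the deposited bounds in brackets. From bound to bound the genotypes differed 9.34 times in untreated and 30.9 times in treated cells. NM_001146348, shorter by 3 coding bases, stood at 4.46 FPKM without drug and 19.7 FPKM with it in p53+/+ cells, and 1.48 and 0.529 FPKM, in that order, in p53-/- cells. NM_001146350 keeps 139 bases of an intron, which changes the annotated end of the coding region. Its level, 0.331 FPKM without drug and 0.909 FPKM with it in p53+/+ cells, and 0.112 and 0.139 FPKM, in that order, in p53-/- cells, was 0.806% to 4.47% of the Eng total. NM_007932 held 77.5% of that total in untreated and 81.7% in treated p53+/+ cells, and 45.1% and 78.5%, in that order, in p53-/- cells. NM_001146348 held 51.1% in untreated and 17.1% in treated p53-/- cells.

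Lgals3 (chromosome 14, 47993535 to 48005842 in mm9; 6 exons) has 2 transcripts that differ by 27 noncoding bases at the end of the first exon. Their sum was 42.1 FPKM without drug and 19.3 FPKM with it in p53+/+ cells, and 14.1 and 15.2 FPKM, in that order, in p53-/- cells. The untreated p53+/+ library stood apart from the other 3. Its level was 2.98 times that of untreated p53-/- cells, a difference of -1.51, while the ratio between treated cells was 1.27. In the p53+/+ response Lgals3 differed by -1.09, where 2.78% of all genes were lower by at least 1, and of the 6 genes Lgals3 and Lck were. That response shares the untreated p53+/+ library with the contrast that chose the gene.

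The large Lgals3 difference lay in NM_010705. It was measured at 29.9 FPKM (27.5 to 32.4) without drug and 8.93 FPKM (7.57 to 10.3) with it in p53+/+ cells, against 1.82 FPKM (1.05 to 2.55) and 7.26 FPKM (5.96 to 8.55) in p53-/- cells. Its partner NM_001145953 was measured at 12.1 FPKM without drug and 10.4 FPKM with it in p53+/+ cells, and 12.3 and 7.96 FPKM, in that order, in p53-/- cells, with untreated libraries at about the same level. NM_010705 made up 71.1% of the Lgals3 total in untreated and 46.3% in treated p53+/+ cells, and 12.9% and 47.7% in p53-/- cells. Both transcripts carry the same 792 coding bases. The deposited models share their start and end and differ in length by 27 bases, so the split rests on that stretch, and no other measure of it was used here.

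Lck (chromosome 4, 129225588 to 129250885 in mm9) also turned on a split between transcripts. The summed level was 10.7 FPKM without drug and 4.72 FPKM with it in p53+/+ cells, and 11.3 and 15.0 FPKM, in that order, in p53-/- cells. The treated p53+/+ library was the lowest, and treated p53-/- cells had 3.19 times its level, a difference of 1.49. The p53+/+ response was -1.03, and -0.69 with a pseudocount of 5 FPKM. The p53-/- response was 0.39. In that response 0 of the 6 genes moved by at least 1, as did 0.377% of all genes upward and 0.461% downward.

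NM_010693, the transcript that brought Lck into this group, was measured at 9.65 FPKM (8.69 to 10.6) without drug and 2.57 FPKM (2.04 to 3.13) with it in p53+/+ cells, against 2.50 FPKM (1.804 to 3.17) and 9.29 FPKM (8.16 to 10.4) in p53-/- cells. NM_001162432 was measured at 1.02 FPKM without drug and 2.14 FPKM with it in p53+/+ cells, and 8.76 and 5.75 FPKM, in that order, in p53-/- cells, and in untreated cells it was high where its partner was low. NM_010693 held 90.4% of the Lck total in untreated and 54.6% in treated p53+/+ cells, and 22.2% and 61.8% in p53-/- cells. It keeps 97 bases of an early intron that NM_001162432 removes, and the coding region of NM_001162432 is annotated as 33 bases, or 11 codons, longer. NM_001162433, which starts far upstream, was at 0.000514 FPKM or less in every library. With the transcript of highest mean FPKM in place of the sum, the untreated difference was -1.61 for Lck and -3.46 for Lgals3, against 0.07 and -1.51 summed.

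**Figure D2:**
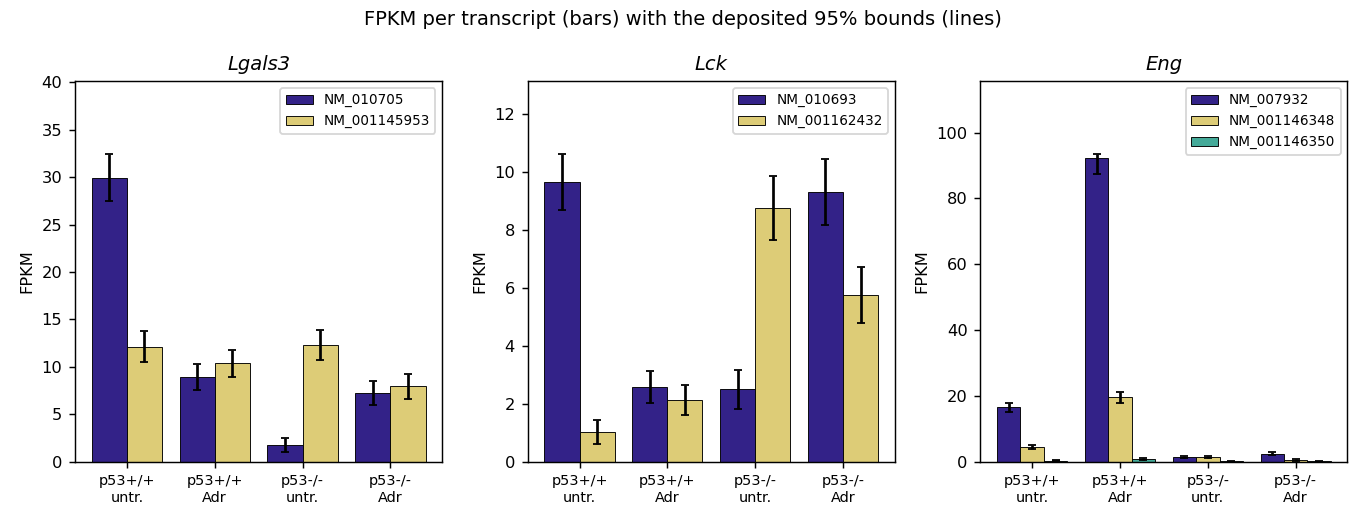
FPKM of each transcript of Lgals3, Lck and Eng (vertical axes, from 0) by library (horizontal axis); bars are single libraries and lines the deposited 95% bounds. The share of NM_010705 is 71.1% in untreated p53+/+ and 12.9% in untreated p53-/- cells, that of NM_010693 is 90.4% and 22.2%, and all Eng transcripts are low in p53-/- cells.

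**Figure D3:**
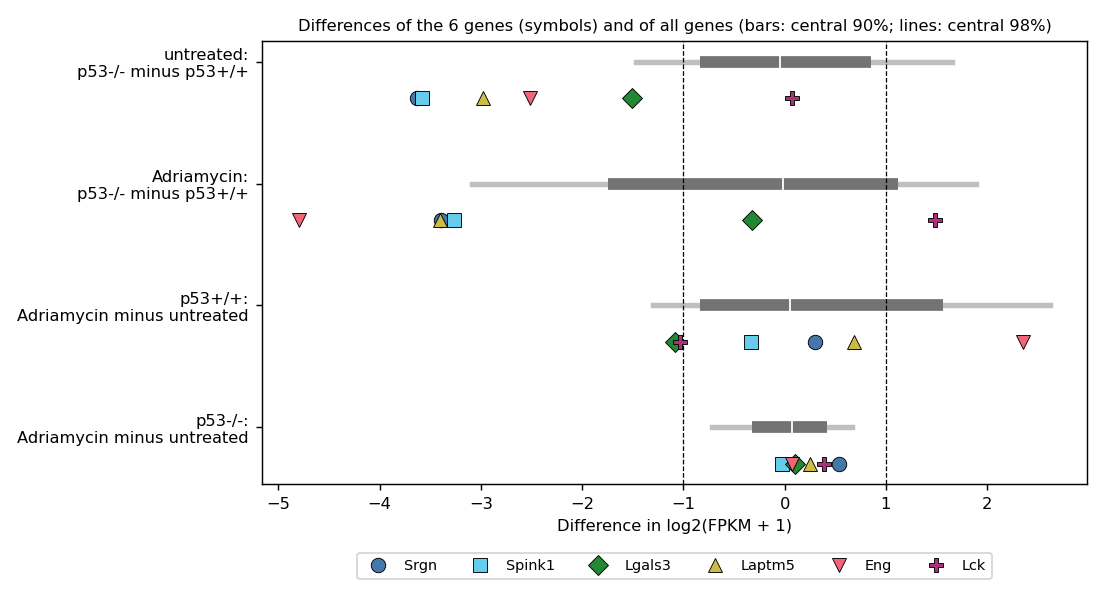
Difference in log2(FPKM + 1) (horizontal axis) in the 4 comparisons (vertical axis) for the 6 genes (symbols), with the central 90% (dark bars), central 98% (light lines) and median (white ticks) of 13013 genes; dashed lines mark a difference of 1. Between treated genotypes Eng lies lowest at -4.79 and Lck highest at 1.49, and in the p53-/- response the 6 genes lie between -0.02 and 0.54.

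The 6 genes did not share 1 profile. For each, the 3 genes with the nearest profile were taken by the distance between log2(FPKM + 1) values centred on their mean over the 4 libraries. The pool was 9364 genes at 5 FPKM or more, from which gene models were then left out. These have names of Gm with a number or names ending in Rik, and some may lie nearer than the genes named. Of the 9 nearest places of Srgn, Spink1 and Laptm5, 7 were held by 4 different Zscan4 genes, some of them repeatedly, and 2 by members of the group itself. The distance includes the untreated libraries that chose these 3 genes, so genes with a large drop in p53-/- cells are favoured by the choice. Few such genes exist: 49 of 13013 were lower by at least 2 in untreated p53-/- cells. Laptm5 lay nearest to Zscan4c (distance 0.07), with 115 FPKM without drug and 179 FPKM with it in p53+/+ cells, and 14.2 and 16.3 FPKM, in that order, in p53-/- cells. Srgn and Spink1 lay nearest to Zscan4b (distances 0.42 and 0.50), with 74.6 FPKM without drug and 96.2 FPKM with it in p53+/+ cells, and 7.44 and 7.49 FPKM, in that order, in p53-/- cells. Srgn and Spink1 lay below 1 FPKM in p53-/- cells, so their nearness to Zscan4b depends on the pseudocount of 1 FPKM. As plain FPKM ratios of untreated p53+/+ to p53-/- cells, Srgn had 56.8, Spink1 25.5 and Zscan4b 10.0. In the p53+/+ response Spink1 differed by -0.33 and Zscan4b by 0.36. The 10 markers of the 2-cell-like state in the tables summed to 546 and 811 FPKM in the p53+/+ libraries and to 72.9 and 72.8 FPKM in the p53-/- libraries. Of the 8 that were measured, 6 were lower by at least 1 in untreated and 8 in treated p53-/- cells. Zscan4 genes are near-identical copies whose single values are uncertain, and the part of this state in the levels of the 3 genes was not tested.

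Eng lay nearest to Zfp365, Ddit4l and Trp53inp1 (distances 0.51, 0.53 and 0.54). Trp53inp1, a known p53 target, had 27.5 FPKM without drug and 119 FPKM with it in p53+/+ cells, and 2.01 and 3.62 FPKM, in that order, in p53-/- cells. Ddit4l, an inhibitor of mTOR signalling, had 5.67 FPKM without drug and 40.9 FPKM with it in p53+/+ cells, and 0.649 and 1.02 FPKM, in that order, in p53-/- cells. Like Eng, both were highest in treated p53+/+ cells. Lgals3 lay nearest to Accsl, Ckap4 and E2f2. Ckap4, a membrane protein of the endoplasmic reticulum, had 42.0 FPKM without drug and 21.0 FPKM with it in p53+/+ cells, and 16.2 and 17.3 FPKM, in that order, in p53-/- cells. Lck lay nearest to Snx10, Mapk11 and Nmt2. Snx10, a sorting nexin of endosomes, had 12.3 FPKM without drug and 5.59 FPKM with it in p53+/+ cells, and 12.7 and 16.9 FPKM, in that order, in p53-/- cells. None of the 9 nearest genes of Eng, Lgals3 and Lck was a 2-cell-like marker, and a distance over 4 libraries describes these libraries only. It includes the untreated libraries that chose these members too, so nothing is read from which genes lay nearest.

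**Figure D4:**
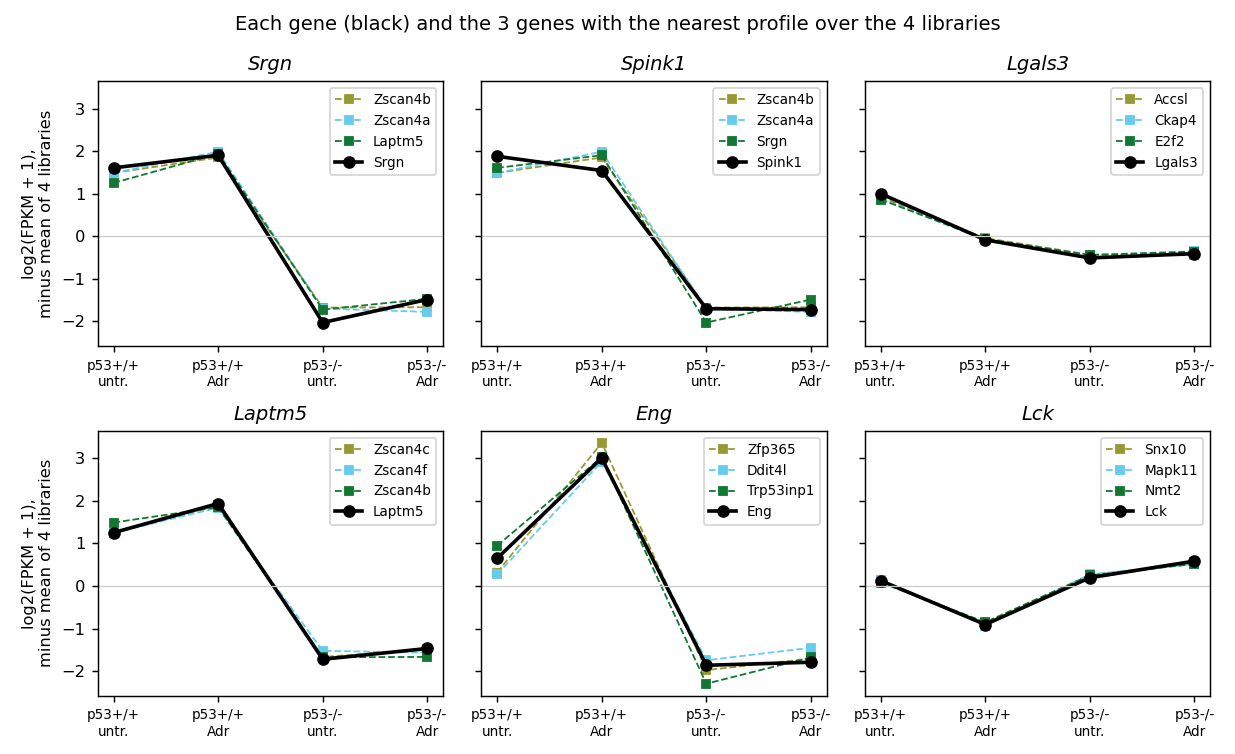
Profiles of the 6 genes (black) and of the 3 genes nearest to each (coloured, dashed), as log2(FPKM + 1) minus the mean of the 4 libraries (vertical axis) by library (horizontal axis). Srgn, Spink1 and Laptm5 share a step between genotypes with Zscan4 genes, Eng peaks in treated p53+/+ cells, and Lck has its lowest point there. The size of the step of Srgn and Spink1 depends on the pseudocount of 1 FPKM, as their p53-/- values lie below it.

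The DNA around start sites was read from RefSeq windows of 300 bases on GRCm38.p6, from 250 bases before the start to 50 after it. Windows were found for 5 of the 6 genes, 7 in all. The motifs searched on both strands were the p53 decamer consensus, a pair of such decamers up to 13 bases apart, the GC box GGGCGG, the TATA box TATAAA, the CCAAT box, the AP-1 site TGANTCA, and the SMAD boxes GTCTAGAC and GTCT, of which the longer holds the shorter. Windows of Srgn, Eng and Lck are shown, as examples of a genotype difference with little drug response (Srgn), a drug response (Eng) and the single p53 decamer (Lck). Capitals mark each motif found other than GTCT, and a window without capitals held none.
Srgn (chr10:62507708-62508007, minus strand): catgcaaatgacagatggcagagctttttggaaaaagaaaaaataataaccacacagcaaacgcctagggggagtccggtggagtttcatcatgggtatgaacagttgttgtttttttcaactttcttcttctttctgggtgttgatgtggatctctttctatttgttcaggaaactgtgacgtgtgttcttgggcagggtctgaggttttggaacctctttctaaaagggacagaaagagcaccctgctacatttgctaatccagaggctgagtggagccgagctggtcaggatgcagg
Eng (chr2:32646345-32646644, plus strand): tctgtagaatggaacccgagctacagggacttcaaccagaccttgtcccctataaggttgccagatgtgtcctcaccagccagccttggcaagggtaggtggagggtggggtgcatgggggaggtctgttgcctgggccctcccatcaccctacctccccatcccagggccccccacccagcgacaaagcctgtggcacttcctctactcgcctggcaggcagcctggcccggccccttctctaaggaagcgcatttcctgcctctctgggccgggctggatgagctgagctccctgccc
Lck (chr4:129558323-129558622, minus strand): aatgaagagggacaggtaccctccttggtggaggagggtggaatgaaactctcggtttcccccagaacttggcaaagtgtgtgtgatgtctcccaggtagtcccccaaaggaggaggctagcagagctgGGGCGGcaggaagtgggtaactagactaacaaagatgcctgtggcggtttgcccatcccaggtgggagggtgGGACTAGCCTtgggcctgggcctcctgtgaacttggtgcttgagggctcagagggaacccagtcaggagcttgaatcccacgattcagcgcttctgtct

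The Lck window placed at the start of NM_001162432 also covers the annotated start of NM_010693, so it belongs to both transcripts. It held the p53 decamer GGACTAGCCT at position -49 from the start of NM_001162432 and GGGCGG at -121. The decamer was found in 1 of the 7 windows and in 8.36% of all 32851 windows, and the pair of decamers in 0 of the 7 and in 0.0731% of all. The Laptm5 window held TATAAA at -218 and CCAAT on the opposite strand at -188, counted from a start at 130913316. The GENCODE model of its transcript NM_010686 starts at 130913125, upstream of that site. The Lgals3 window held GGGCGG on each strand and CCAAT on the opposite strand, and the other Srgn window held TATAAA at -98. That Srgn window is placed at a start at 62527445, far upstream of the GENCODE start of the measured transcript NM_011157 at 62507755. The windows printed for Srgn and Eng held only GTCT, which all 7 windows and 88.0% of all windows hold. Of all windows, 35.7% held GGGCGG, 37.4% CCAAT, 13.6% TATAAA, 7.81% TGANTCA and 0.213% GTCTAGAC. A match describes letters, and its absence says nothing of sites elsewhere.

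Neighbouring genes were read because Lck and Laptm5 lie 1.22 Mb apart on chromosome 4. Of 22 genes between them at 1 FPKM or more, 0 were lower and 2 higher by at least 1 in untreated p53-/- cells, and 1 was lower and 1 higher in treated ones. Matn1, a cartilage matrix gene 8.24 kb after Laptm5, had 0.443 FPKM without drug and 22.7 FPKM with it in p53+/+ cells, and 0.0266 and 0.0242 FPKM, in that order, in p53-/- cells. Its drug response in p53+/+ cells was 4.04, beside 0.68 for Laptm5. Sdc3, a syndecan gene on the other side of Laptm5, was higher in p53-/- cells, by 1.62 untreated and 1.33 treated, opposite to Laptm5. The measured genes nearest to Spink1 lay far from it, Myot at 597 kb and Dpysl3 at 335 kb. Myot, which was highest in treated p53+/+ cells at only 1.61 FPKM, differed by -1.10 between treated genotypes and by 1.02 in the p53+/+ response. Dpysl3 differed by less than 1 in all 4 comparisons. Ak1, an adenylate kinase gene 11.5 kb before Eng, had 26.6 FPKM without drug and 85.7 FPKM with it in p53+/+ cells, and 15.8 and 15.9 FPKM, in that order, in p53-/- cells. Like Eng, Ak1 was highest in treated p53+/+ cells. Fpgs, whose end overlaps Eng, differed by less than 1 in all 4 comparisons, and so did the neighbours of Srgn (Vps26a and Kifbp), Lgals3 (Mapk1ip1l and Dlgap5) and Lck (Hdac1 and Eif3i).

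Genes that act with the members were then read in treated cells, as levels in p53+/+ and p53-/- cells. Of 12 serglycin partner and granule genes, 4 reached 1 FPKM, and 3 were higher and 0 lower in p53-/- cells, namely Cd44, Plat and Mmp9, all below 5 FPKM. Of 12 genes for proteoglycan core proteins like serglycin, 3 were higher and 5 lower. Bgn, the biglycan gene, stood at 3.31 FPKM with p53 and 93.6 FPKM without, whereas the syndecan gene Sdc4 stood at 109 FPKM with p53 and 14.8 FPKM without. Among protease inhibitor genes beside Spink1, Serpine2, which encodes protease nexin, stood at 91.4 FPKM with p53 and 19.5 FPKM without. The trypsin gene Prss1 was listed at 0 in every library.

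Beside Lgals3, 1 of 8 measured genes of the galectin list was higher and 2 lower in treated p53-/- cells. Lgals1, the galectin-1 gene, stood at 49.5 FPKM with p53 and 148 FPKM without, and Lgals4 at 8.40 FPKM with p53 and 1.67 FPKM without. Of 10 genes of the LAPTM family and lysosomal sorting, 0 differed by at least 1, and Ctsd, the cathepsin D gene, stood at 280 FPKM with p53 and 157 FPKM without. Laptm5 thus differed by -3.40 in a comparison where its list had a median of 0.10.

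For Eng, 2 of 20 measured genes of the receptor complex and its targets were higher and 1 lower in treated p53-/- cells. The ligand gene Tgfb1 stood at 2.91 FPKM with p53 and 17.2 FPKM without, and Tgfb3 at 0.118 FPKM with p53 and 1.98 FPKM without. Tgfbr3, which encodes the related co-receptor betaglycan, stood at 3.10 FPKM with p53 and 0.568 FPKM without. For Lck, 1 of 11 measured Src family and regulator genes was higher and 3 lower. Zap70, the kinase that acts after Lck in T cells, stood at 17.5 FPKM with p53 and 2.14 FPKM without, Syk at 9.82 FPKM with p53 and 2.46 FPKM without and Lyn at 2.46 FPKM with p53 and 0.483 FPKM without. Unc119, which encodes a carrier of lipid-modified Src kinases, stood at 16.3 FPKM with p53 and 40.1 FPKM without. List medians ran from -0.72 for proteoglycan core proteins to 1.24 for granule partners, beside -0.02 over all genes.

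Because several members are known from blood and vessel cells, markers of those cells were read too. Leukocyte markers (11 of 12 in the tables) summed to 7.76 and 13.1 FPKM in the p53+/+ libraries and 9.74 and 10.4 FPKM in the p53-/- libraries. Ptprc, the CD45 gene, was listed at 0 in 3 libraries and reached 0.0194 FPKM in untreated p53-/- cells. The 10 T cell markers ranged in sum from 7.92 FPKM in treated p53-/- to 29.8 FPKM in treated p53+/+ cells, most of it Zap70 and Lat. Among the others, Cd3e reached 1.94 FPKM and Cd247 0.807 FPKM, both in treated p53+/+ cells, and Cd3d, Cd3g, Cd4, Cd8a and Cd28 were at 0.286 FPKM or less. The 10 endothelial markers summed to between 30.1 and 44.5 FPKM, with Pecam1 as the largest part, and Cdh5, the VE-cadherin gene, was at 0.357 FPKM or less. Tek, which encodes the angiopoietin receptor, had 1.78 FPKM without drug and 9.35 FPKM with it in p53+/+ cells, and 0.640 and 0.942 FPKM, in that order, in p53-/- cells. Like Eng, Tek was highest in treated p53+/+ cells, and its part in the Eng result was not tested. Of the 6 measured endothelial markers, 0 were higher and 1, Tek, was lower by at least 1 in treated p53-/- cells. The median of the list was 0.32 in that comparison. Pecam1 went the other way from Tek, with 18.0 FPKM in treated p53+/+ and 33.1 FPKM in treated p53-/- cells.

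Endoderm markers moved with the genotype in part. Of 12 measured markers of primitive and parietal endoderm, 7 were lower and 1 higher by at least 1 in treated p53-/- cells. Gata6, a regulator of that lineage, had 3.94 FPKM without drug and 4.74 FPKM with it in p53+/+ cells, and 0.531 and 0.423 FPKM, in that order, in p53-/- cells. Thbd, the 1 marker that was higher, had 0.311 FPKM in treated p53+/+ and 4.27 FPKM in treated p53-/- cells. Summed over 13 markers the level was 316 and 349 FPKM in the p53+/+ libraries and 273 and 283 FPKM in the p53-/- libraries. Of 6 measured visceral endoderm markers, 3 were lower and 1 higher, and of 5 trophoblast markers 3 were higher and 0 lower. Their sums ranged from 10.8 to 22.5 FPKM and from 26.5 to 64.5 FPKM. The part of these cell states in the levels of the 6 genes was not tested.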

How the data were processed

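The authors deposited, for each of the 4 libraries, FPKM per transcript with a lower and an upper bound, in the Cufflinks layout per the file headers. Their deposited tables also hold coverage, an unscaled signal of mean read depth per base, and each transcript's length and position. The submitters' processing notes name CASAVA 1.8.1, TopHat2 2.0.5, TopHat, Cufflinks and the build mm9 without role or order. An exome enrichment kit, named in the labels' protocols, could change which transcripts were captured. The annotation used was not given in the sources at hand. As FPKM are no counts, count models were not used.

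Of 30769 rows, 30227 were named from RefSeq (GRCm38.p6) and 180 from GENCODE M21, and 362 stayed unnamed. Positions are those of the tables, counted from 1. GRCm38 served for names, exon models and promoter windows. Rows of short RNAs or under 200 bases (809) were left out. FPKM was summed per gene, genes at 1 FPKM in a library were kept, and differences were taken in log2(FPKM + 1), which understates changes of low genes. Differences of at least 1 were counted.

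The members, lists and rules were chosen with earlier results of these data known. The rule for named genes took the 6 members, Trp53, up to 4 genes per list with the largest treated genotype difference at 5 FPKM or more, list genes past 1, the 3 nearest profiles and the nearest measured neighbours, of which not all are printed. The counts of the protease inhibitor list are not reported here. Prss1 and the cell type markers named were chosen after their values were seen. Bounds reflect counting and the assignment of reads to transcripts, and 1525 to 2036 rows per library exceeded their own upper bound.

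Alternatives were other pseudocounts, filters, scalings, transcript choice, step and rows within their bounds. Coverage in place of FPKM and keeping short transcripts were added after the data were seen. Coverage was divided by the bases covered in its library and taken without a pseudocount, so it changed the pseudocount as well as the measure. On simulated data for the untreated genotypes over 7982 genes, 100 of 100 genes lowered 4-fold and 100 of 100 raised 8-fold were recovered. These genes started at 5 FPKM or more and little noise was added, so recovery was nearly fixed in advance. It checks the calculation only and says nothing of low genes or of real libraries without replicates. Python 3.11.15, pandas 2.3.3, numpy 2.4.6 and matplotlib 3.10.9 were used.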

Additional observations from a re-analysis of the deposited data

Results flagged for a closer look

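The responses to Adriamycin of Lgals3 and Lck had opposite signs in the genotypes, with 1 library in each group, and the difference between the responses was not tested. With transcripts summed, Lgals3 differed by -1.09 in p53+/+ and 0.10 in p53-/- cells, the latter close to the median of 0.07 over all genes, and Lck by -1.03 and 0.39. Single transcripts gave -1.64 and 1.55 for NM_010705 of Lgals3 and -1.57 and 1.56 for NM_010693 of Lck. Both responses start from the untreated libraries that chose these transcripts as high in p53+/+ and low in p53-/- cells, so opposite signs are favoured by the choice itself and nothing is read from them. The Eng transcript NM_001146348 differed by 1.92 in p53+/+ and -0.70 in p53-/- cells, while Eng summed differed by 2.35 and 0.07.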

How the results depend on the processing

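No paired analysis was possible because each group has 1 library, and for the same reason no library could be left out. Over the alternatives run, the untreated and treated genotype differences of Srgn, Spink1, Laptm5 and Eng kept their direction and stayed past 1. Rows within their own bounds gave no value for Srgn, Spink1 and Laptm5. Eng ranged from -5.25 to -3.86 between treated genotypes, Laptm5 from -3.59 to -2.83, Srgn from -4.60 to -1.99 and Spink1 from -4.51 to -1.87. The low ends of Eng, Srgn and Spink1 came from coverage, which was taken without a pseudocount. The p53+/+ response of Lgals3 was -0.95 with a pseudocount of 5 FPKM. With the most abundant transcript the p53-/- response passed 1 for Lgals3 (1.55) and Lck (1.56). Coverage in place of FPKM gave 1.67 for Srgn, but it also left out the pseudocount. With FPKM and a pseudocount of 0.1 FPKM the value for Srgn was 1.38.

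Counts of all genes moved more, by construction of the pseudocount, filter and step. A pseudocount of 0.1 FPKM gave 853 higher and 886 lower genes between untreated genotypes, 613 lower in the p53+/+ response, and 188 higher and 97 lower in the p53-/- response. A pseudocount of 5 FPKM gave 135 higher and 122 lower between untreated and 335 and 795 between treated genotypes, 627 and 153 in the p53+/+ and 20 and 31 in the p53-/- response. A step of 2 gave 71 and 49, 105 and 495, 342 and 12, and 15 and 7 in that order. A filter of 5 FPKM gave 288 higher between untreated genotypes and 26 higher in the p53-/- response. With the most abundant transcript the p53-/- response had 75 higher and 91 lower genes, and within their own bounds 29 were lower. Quantile normalization gave 589 lower genes in the p53+/+ response, moved its median over all genes from 0.05 to -0.10, and its share of higher calls from 80.4% to 65.3%. Between treated genotypes it moved that share from 34.0% to 44.3% and the median from -0.02 to 0.10. The cause was not tested. Depth limits the low values of Srgn and Spink1 in untreated p53-/- cells, with mean read depths per base of 0.991 and 3.12.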
